A study of Sus scrofa with 40 samples.

Results

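Warm ischemia (WI) alone was followed in the corticomedullary junction (CMJ) of porcine kidneys, the band of tissue where the outer cortex meets the medulla. The comparison took every array labelled as warm-ischemic CMJ (WI-CMJ, 5 arrays) and every array labelled as control CMJ (Ctl-CMJ, 5 arrays), that is 10 of the 40 arrays of the series. The other 30 arrays hold the cortex (C) of the same conditions and both tissues after cold storage (CS), and they are used here only for values side by side. All animals were Large White pigs 3 months old, described as brothers, and all were operated under the same anaesthesia. Ctl kidneys were removed and frozen at once. WI kidneys were clamped, removed and kept clamped for 60 min at 37 °C, without reperfusion. The paper describes a flush with cold preservation solution after this period. Whether kidneys of the WI group were flushed before sampling is not stated plainly. Kidneys of the cold storage groups went through the same WI and were then kept at 4 °C in preservation solution, with samples of 5 kidneys taken at 6 h (WI+CS6h) and again from these kidneys at 24 h (WI+CS24h). There was no blood flow after the clamp, so the model ends before reperfusion. Each array held RNA of whole tissue, in which fewer cells of a type and less RNA per cell cannot be told apart. Whether the C and the CMJ array of a number came from 1 kidney is not stated, and the p-values measure the spread between these samples.

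Immediate early genes are genes whose transcription starts within minutes of a stimulus without new protein synthesis. FOS, FOSB and JUN encode subunits of the AP-1 transcription factor, and EGR1 encodes a zinc finger transcription factor that is switched on by the same mitogen- and stress-activated kinase pathways. Their messages are short-lived, and their induction by ischemia is well known in the kidney, whose junctional zone has a low oxygen tension and holds tubule segments with a high demand for oxygen.

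The array measures each transcript with designed 60-base oligonucleotides. The probes of the transcripts on which the comparison turned are given below, as the array files hold them, from the 5′ to the 3′ end and without marked bases. The first 4 read transcripts that rose, and they are whole. Of the last pair, which read a transcript that fell and a transcript that rose and that the files leave without a gene name, the first 30 bases are shown.
FOS (identifier NM_001123113): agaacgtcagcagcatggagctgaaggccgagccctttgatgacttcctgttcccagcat
FOSB (identifier NP276701): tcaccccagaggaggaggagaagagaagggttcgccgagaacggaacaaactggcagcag
EGR1 (identifier ENSSSCT00000015660): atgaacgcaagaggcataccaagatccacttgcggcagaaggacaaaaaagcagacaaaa
H2A histone transcript (identifier ENSSSCT00000007306): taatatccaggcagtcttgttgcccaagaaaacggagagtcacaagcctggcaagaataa
TC626266, first 30 bases: atggccaatttcctctgacatacttttgcc
TC564655, first 30 bases: tcaggttgaacctcatagcttggattctcc

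Signals are given on the log2 scale after quantile normalization over all arrays, and a difference always means WI-CMJ minus Ctl-CMJ with its standard error (SE). A transcript was called changed when limma's Benjamini-Hochberg adjusted p was under 0.05 and the log2 difference was at least 0.5 in either direction, the thresholds of the study's methods. Of 35938 identifiers tested, 133 (0.37%) were called higher and 114 (0.317%) were called lower in WI-CMJ, while 4410 had an unadjusted p under 0.05. When each group of arrays was quantile normalized on its own, the split turned to 98 higher and 153 lower. All WI-CMJ arrays lay above all Ctl-CMJ arrays for 527 identifiers (1.47%), and all lay below for 863 (2.4%). Among the called, 83 of the 133 higher and 109 of the 114 lower identifiers had groups that did not overlap. The median difference was 0.72 for those called higher, -0.75 for those called lower and -0.01 over everything tested. A gene symbol was known for 75 of the 133 higher identifiers, which stand for 72 genes, and for only 12 of the 114 lower ones, against 8841 of all 35938. Of the 247 calls, 28 higher and 39 lower ones were made again in each of the 10 fits that left out 1 of the compared arrays. The spread was estimated over all 20 CMJ arrays, of which the 10 cold-stored ones come from 5 kidneys and were taken as independent, and a fit of the 10 compared arrays alone called 136 identifiers (61 higher and 75 lower) and 15 of the 30 genes named by rule.

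**Figure D1:**
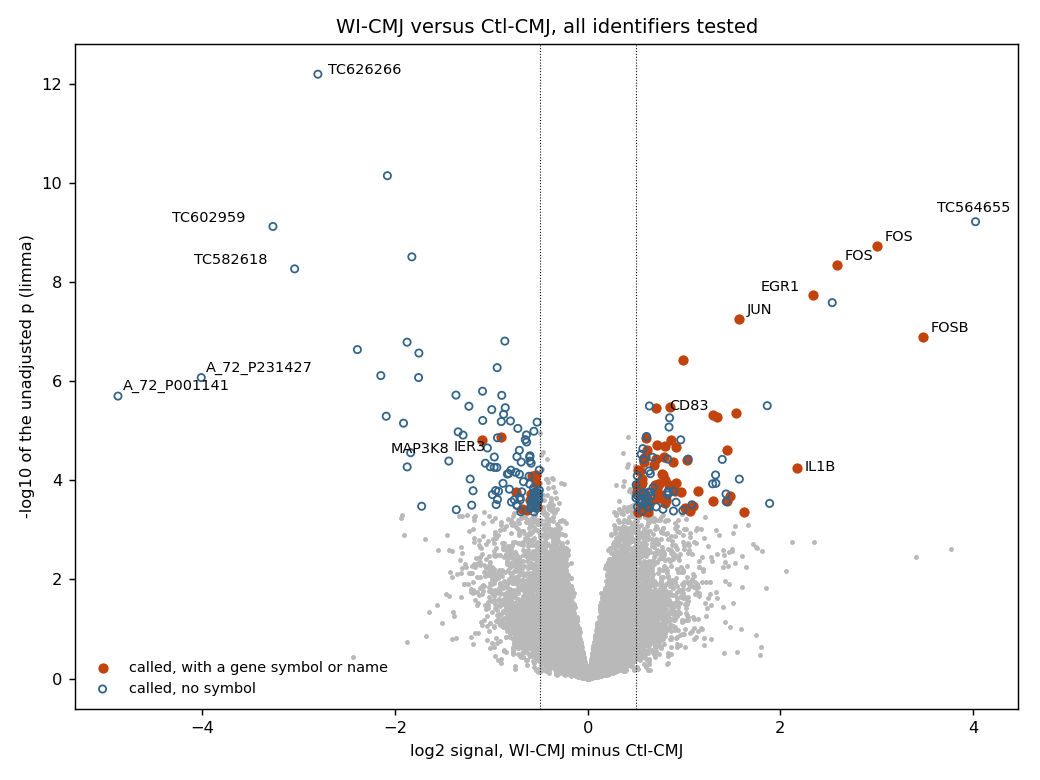
Each point is an identifier, placed by its log2 signal in WI-CMJ minus Ctl-CMJ and by -log10 of its unadjusted limma p, with dotted lines at -0.5 and 0.5. Filled points are the called identifiers with a symbol or name and open circles those without one, and the side of the rises holds FOS, FOSB, EGR1 and JUN while the side of the falls is mostly open circles.

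Spots well above background made up 64.7% ± 2.04 (SD, n = 5) of an array in WI-CMJ and 65.4% ± 2.60 in Ctl-CMJ, a difference of -0.657 percentage points (two-sided exact permutation p = 0.651). The tissue label was checked against markers of the thick ascending limb, a segment that runs through the outer medulla. Of 7 on the array 6 were higher in Ctl-CMJ than in Ctl-C, with a median difference of 0.63, 3 passed the test, and EGF had -0.41. Of those that passed, SLC12A1, its salt transporter, was higher in Ctl-CMJ than in Ctl-C by 1.24 (adjusted p = 0.0119), KCNJ1 by 0.69 (adjusted p = 0.00546) and CLDN10 by 0.52 (adjusted p = 0.0291), and the median of 9 collecting duct markers was -0.13. Of the 2 osmolyte genes of the medulla, AKR1B1 was higher by 1.83 (adjusted p = 0.00122) and SLC6A12 by 0.00. UPK3A, a urothelial protein, was higher in Ctl-CMJ by 2.16 (adjusted p = 0.00295). The other urothelial markers on the array, UPK1A, UPK1B and UPK2, had 0.19, 0.25 and 0.09 and did not pass. The marker genes of the proximal tubule, which fills the cortex, had a median CMJ minus C difference of -0.25, with 1 of 10 positive. The shares over all identifiers for this contrast are not given here, so these counts describe only the listed markers.

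Several AP-1 genes and EGR1 rose. Of 11 AP-1 genes listed, 5 could be matched by symbol or description, and here as in the lists below the others may be read by identifiers without a name. Of the 5, 3 (FOSB, FOS and JUN) were called higher, beside 0.37% of all identifiers, and none lower, and the median difference of the 5 was 0.81. FOS rose 6.02-fold, FOSB from below background to a clear signal, and EGR1 5.08-fold, and for each of these all WI-CMJ arrays lay above all Ctl-CMJ arrays. All were called again whichever of the 10 arrays was left out.

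FOS, read by 3 probes of 1 identifier, had signals of 10.09, 9.39, 9.55, 9.29 and 10.74 in Ctl-CMJ replicates 1 to 5 and of 12.35, 12.19, 12.56, 12.23 and 12.67 in WI-CMJ replicates 1 to 5. The controls were spread, with replicate 5 the highest, whereas the WI-CMJ arrays were tight. The difference was 2.59 ± 0.25 (SE), (adjusted p = 2.3e-05), and the 3 probes taken singly gave 2.51, 2.48 and 2.77. The other FOS identifier, whose probe is printed above, rose by 3.01 ± 0.27 (adjusted p = 1.3e-05).

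FOSB, which pairs with JUN proteins as FOS does, read 0.38, 0.39, 0.28, 0.32 and 0.49 in the Ctl-CMJ arrays and 3.75, 3.22, 4.61, 3.59 and 4.12 in the WI-CMJ arrays. Its probe was not well above background on any Ctl-CMJ array and was well above it on all WI-CMJ arrays, so the change is a bound, at least 2.93-fold higher (fitted difference 3.48 ± 0.41, adjusted p = 0.00039). The fitted value depended on how background was treated. It was 0.17 after normexp correction with an offset of 50 (adjusted p = 0.13). The offset is added to every signal and by itself shrinks the log2 differences of dim transcripts. In the authors' log2 matrix the FOSB difference was 0.63 (adjusted p = 0.052), and neither value passed.

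JUN was read by a pair of identifiers. The brighter (NM_213880) had signals of 13.02, 12.74, 12.83, 12.84 and 13.38 in Ctl-CMJ and of 13.77, 13.76, 13.79, 13.70 and 13.84 in WI-CMJ, a difference of 0.81 ± 0.18 (adjusted p = 0.040), which passed in 2 of the 10 fits with 1 array left out. The dimmer (ENSSSCT00000036290) had 7.85, 7.52, 7.47, 7.52 and 8.00 against 8.74, 9.28, 9.37, 9.28 and 9.56, a difference of 1.57 ± 0.18 (adjusted p = 0.00018), and passed in all 10. Groups did not overlap for either probe, but the size of the rise differed between them. FOSL2, another FOS relative, had a difference of -0.03 ± 0.20, and MAFF, a small partner of AP-1 proteins, had 0.50 ± 0.25 (adjusted p = 0.46).

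EGR1 had signals of 3.56, 2.67, 3.32, 3.08 and 4.38 in Ctl-CMJ and of 5.62, 5.35, 5.87, 5.78 and 6.12 in WI-CMJ. It rose by 2.34 ± 0.24 (adjusted p = 7.4e-05), with Ctl-CMJ replicate 5 again the highest control. With normexp correction and its offset of 50 the difference was 0.38 (adjusted p = 0.0030), under the log2 threshold. Of 13 listed early factors of the EGR, KLF, NR4A and IER families on the array, 2 were called higher (EGR1 and NR4A2) and 1 lower (IER3), beside 0.37% and 0.317% of all identifiers, and the median difference was 0.36. NR4A2, an orphan nuclear receptor, went from 5.42, 5.19, 5.24, 4.99 and 5.46 to 6.45, 6.36, 6.98, 6.79 and 7.09, a difference of 1.47 ± 0.32 (adjusted p = 0.037), and its other identifier gave 1.00 ± 0.25 (adjusted p = 0.071). The call of NR4A2 was made in 3 of the 10 fits with 1 array left out.

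Among the family members that did not pass were KLF4 (0.94 ± 0.23, adjusted p = 0.059), NR4A3 (0.93 ± 0.28, adjusted p = 0.13) and KLF2 (0.49 ± 0.14, adjusted p = 0.12). SRF, the serum response factor that drives many early genes, had 0.36 ± 0.10 (adjusted p = 0.089). MYC had 0.24 ± 0.14 (adjusted p = 0.52). EGR2 and EGR4 were not well above background on any of the 10 arrays, and EGR3 was on 1 array of each group, so no change can be read for them.

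**Figure D2:**
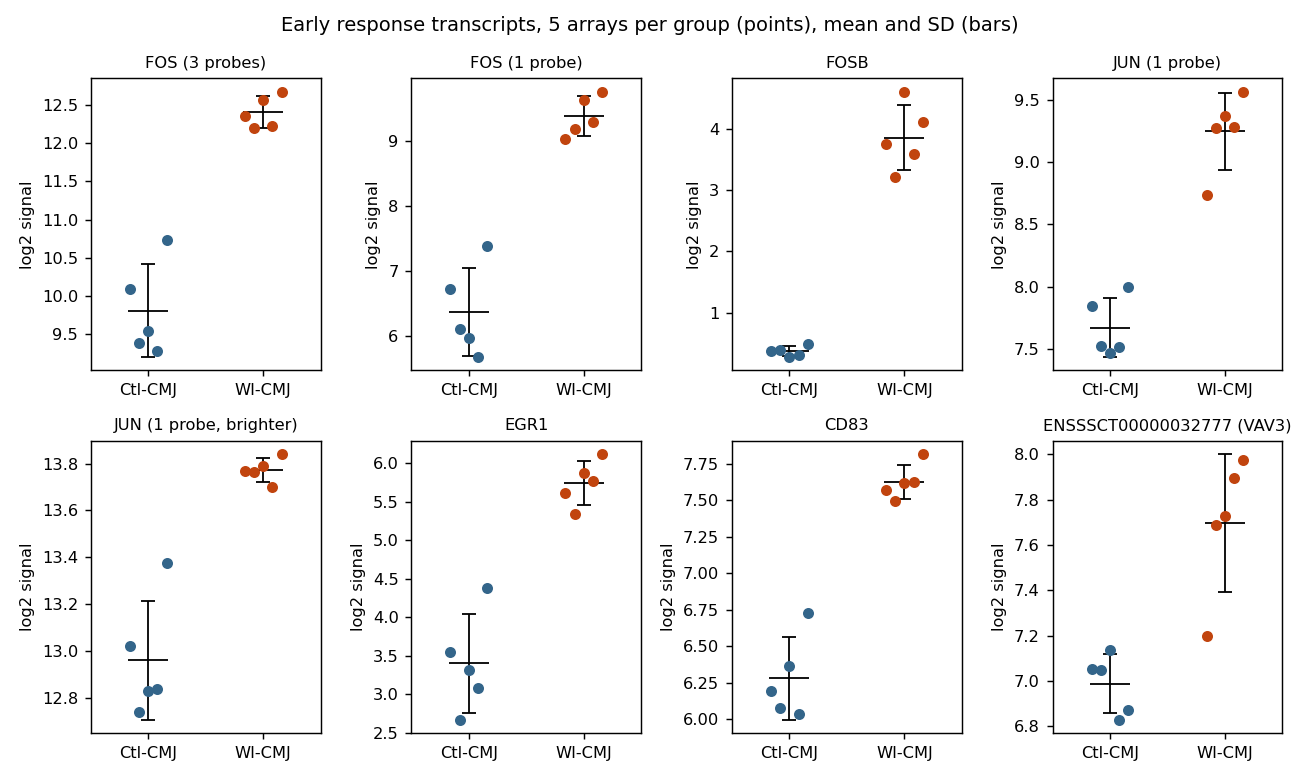
Points are the log2 signals of the 5 Ctl-CMJ and the 5 WI-CMJ arrays for FOS, FOSB, JUN, EGR1, CD83 and the identifier that the study names VAV3, and bars give the mean and SD of each group. In every panel the lowest WI-CMJ array lies above the highest Ctl-CMJ array, and for FOSB all controls lie below 0.5.

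Genes that restrain growth or close the early response were listed as feedback genes. Of 19 on the array, each by its brightest identifier, 2 were called higher and none lower, beside 0.37% of all identifiers called higher, and the median difference was 0.17. BTG2, an antiproliferative cofactor, had signals of 9.10, 8.76, 8.87, 8.47 and 9.36 in Ctl-CMJ and of 10.32, 9.80, 10.42, 9.88 and 10.65 in WI-CMJ, a rise of 1.30 ± 0.20 (adjusted p = 0.0050) that held with any array left out. PLK3, a stress-activated kinase, went from 6.64, 6.24, 6.74, 6.22 and 6.92 to 7.30, 7.63, 7.48, 7.49 and 7.42, a rise of 0.91 ± 0.19 (adjusted p = 0.029, called in 3 of the 10 fits with 1 array left out).

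The phosphatase DUSP6, which switches off the ERK kinases, had a difference of 0.21 ± 0.18 at a signal near 12. SOCS3 had 0.54 ± 0.21 (adjusted p = 0.27), CSRNP1 had 0.53 ± 0.13 (adjusted p = 0.075), and SPRY2, an inhibitor of receptor kinase signaling, had -0.48 ± 0.17 (adjusted p = 0.23). None of these 4 passed.

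CYR61, a matricellular protein gene induced by serum and stretch, was read with opposite signs. Its main identifier, with 4 probes, had signals of 8.82, 8.27, 8.07, 8.52 and 9.43 in Ctl-CMJ and of 9.48, 9.88, 9.97, 9.50 and 9.98 in WI-CMJ, a difference of 1.14 ± 0.29 (adjusted p = 0.071), and the single probes ranged from 0.80 to 1.41. A separate identifier described in the files as part of the same gene (TC625961) read 8.05, 7.50, 7.47, 7.71 and 8.53 in Ctl-CMJ and 5.97, 6.13, 5.97, 5.86 and 5.96 in WI-CMJ, a fall of 1.88 on the log2 scale (SE 0.23, adjusted p = 0.00042) that was called whichever array was left out. These identifiers were singled out after their values were seen, and which part of the transcript the latter reads was not determined.

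Of 10 growth factor genes listed with the EGFR ligands, HBEGF alone was called, beside 0.37% of all identifiers called higher. HBEGF, a membrane-bound ligand of the EGF receptor made by injured tubules, read 6.02, 5.86, 5.79, 5.98 and 6.30 in Ctl-CMJ and 6.55, 6.46, 6.84, 6.81 and 6.93 in WI-CMJ. It rose by 0.73 ± 0.15 (adjusted p = 0.029, called in 3 of the 10 fits with 1 array left out). The other ligands EREG and BTC had differences of -0.18 and -0.19, TGFA had 0.36 ± 0.17 (adjusted p = 0.41) at its brighter identifier and 0.46 ± 0.15 (adjusted p = 0.15) at the other, AREG was not well above background on any of the 10 arrays, and the median of the list was -0.09.

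Of 20 genes of the NF-kB pathway and its early targets on the array, 2 were called higher (IL1B and CD83) and 1 lower (MAP3K8), beside 0.37% and 0.317% of all identifiers, and the median difference was 0.11. IL1B, the inflammatory cytokine interleukin 1 beta, had signals of 3.36, 3.13, 3.16, 2.11 and 4.19 in Ctl-CMJ and of 5.51, 4.89, 5.47, 5.14 and 5.82 in WI-CMJ. It rose by 2.18 ± 0.42 (adjusted p = 0.020). The call was made in 6 of the 10 fits with 1 array left out, in which the difference stayed between 1.91 and 2.43. With normexp correction and its offset of 50 the difference was 0.30 (adjusted p = 0.18).

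CD83, a surface protein of activated antigen-presenting cells, read 6.20, 6.08, 6.36, 6.03 and 6.73 in Ctl-CMJ and 7.57, 7.50, 7.62, 7.62 and 7.81 in WI-CMJ. It rose by 1.34 ± 0.21 (adjusted p = 0.0051), its other identifier rose by 1.54 ± 0.24 (adjusted p = 0.0047), and both were called with any array left out. None of the 8 leukocyte markers on the array was called by limma or had an unadjusted p under 0.05. Of all 35938 identifiers, 0.37% were called higher, 0.317% were called lower and 4410 had an unadjusted p under 0.05. The differences of the 8 markers ranged from -0.43 (S100A9) to 1.01 (S100A8), with 6 positive and a median of 0.13. Their summed linear signal ranged from 364 to 474 in Ctl-CMJ and from 407 to 489 in WI-CMJ.

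Feedback inhibitors of NF-kB did not pass the test. NFKBIA, which holds NF-kB in the cytoplasm, had differences of -0.03 and -0.14 for its 2 identifiers, and TNFAIP3, which ends the signal, had -0.10 ± 0.31. TNF had 0.02 ± 0.20, IL6 had -0.22 ± 0.25, ICAM1 had 0.17 ± 0.14 and CCL2 had 0.53 ± 0.22, and none of them passed. CXCL8, the neutrophil chemokine, was called for one identifier (1.62 ± 0.38, adjusted p = 0.050, groups overlapping) and not for the other (0.75 ± 0.18, adjusted p = 0.059). PTGS2, the inducible cyclooxygenase, had 0.59 ± 0.37 (adjusted p = 0.57) for its RefSeq identifier, while a transcript described as part of PTGS2 (TC593872) was called at 0.61 ± 0.10 (adjusted p = 0.0091).

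CCL3L1, a chemokine that attracts monocytes, was outside the list. It had signals of 5.87, 5.57, 5.48, 5.34 and 6.34 in Ctl-CMJ and of 6.54, 6.96, 6.32, 7.19 and 6.73 in WI-CMJ, a rise of 1.03 ± 0.19 (adjusted p = 0.016) with the highest control above the lowest WI-CMJ array. The call was made in 7 of the 10 fits with 1 array left out.

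The identifier ENSSSCT00000032777, which the study names VAV3 and which the array files leave unnamed, read 7.05, 7.05, 7.14, 6.83 and 6.87 in Ctl-CMJ and 7.20, 7.69, 7.73, 7.89 and 7.98 in WI-CMJ. It rose by 0.71 ± 0.13 (adjusted p = 0.016), and all WI-CMJ arrays lay above all Ctl-CMJ arrays. Its 4 probes gave differences of 0.81, 0.30, 0.94 and 0.79, and the call was made in 8 of the 10 fits with 1 array left out.

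**Figure D3:**
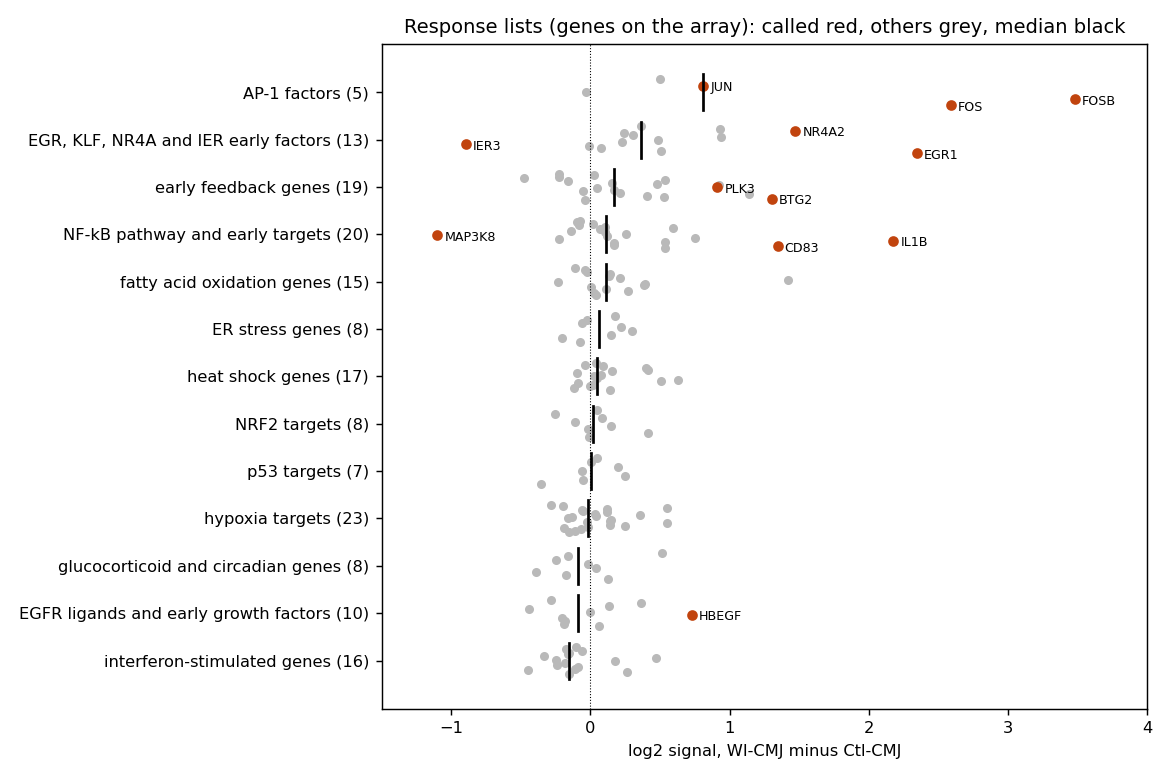
Each point is a gene of 1 of 13 response lists, placed by its log2 signal in WI-CMJ minus Ctl-CMJ (for several identifiers, the brightest), with called genes in red and named and the list's median as a black bar. The number of genes on the array stands beside each list, and called genes lie only in the 5 lists of AP-1 factors, other early factors, feedback genes, NF-kB targets and growth factors.

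The lists of slower stress programs held no gene called by limma, beside 0.37% of all identifiers called higher and 0.317% called lower, and 4410 of all 35938 had an unadjusted p under 0.05. Hypoxia targets, which the HIF factors switch on at low oxygen, had a median difference of -0.02 over 23 genes, 4 of which had an unadjusted p under 0.05. VEGFA in this list had -0.29 ± 0.09 (adjusted p = 0.13) at its brighter identifier and 0.18 ± 0.15 (adjusted p = 0.71) at the other. Heat shock genes had 0.05 over 17 genes (3 with an unadjusted p under 0.05), ER stress genes 0.06 over 8 (2), NRF2 targets of the antioxidant response 0.02 over 8 (1) and p53 targets 0.01 over 7 (0). Interferon-stimulated genes had -0.15 over 16 genes (1), glucocorticoid and circadian genes -0.09 over 8 (1) and fatty acid oxidation genes 0.11 over 15 (2). HMOX1, a stress-induced heme oxygenase, had 0.14 ± 0.23, and the inducible heat shock gene HSP70.2 had 0.63 ± 0.49 (adjusted p = 0.68). A rise of these programs was not detected, and a p above the threshold does not show that they stayed level.

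Some of the other named rises encode secreted, matrix or vessel proteins. They were put together after their values were seen and were not tested as a group. COL6A2, a chain of collagen VI, had signals of 4.01, 3.69, 3.54, 4.04 and 4.59 in Ctl-CMJ and of 4.50, 5.55, 5.72, 5.12 and 6.23 in WI-CMJ, a rise of 1.45 ± 0.26 (adjusted p = 0.013). BGN, the proteoglycan biglycan, read 5.09, 4.79, 4.15, 5.56 and 5.75 against 5.54, 6.43, 6.61, 6.20 and 7.07, a rise of 1.30 ± 0.29 (adjusted p = 0.040). In both genes WI-CMJ replicate 1 lay within the range of the controls and WI-CMJ replicate 5 was the highest.

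ADAMTS8, a secreted metalloprotease, read 5.09, 4.54, 4.49, 4.23 and 5.25 in Ctl-CMJ and 6.22, 5.28, 7.04, 5.23 and 7.10 in WI-CMJ, a rise of 1.45 ± 0.32 (adjusted p = 0.041). ACKR1, the chemokine-scavenging receptor of venules and red cells, read 4.39, 4.24, 4.35, 4.01 and 4.46 against 5.39, 4.88, 5.70, 4.77 and 6.46, a rise of 1.15 ± 0.24 (adjusted p = 0.034). KAZALD1, a secreted matrix protein, rose by 1.01 ± 0.23 (adjusted p = 0.046) from 4.50 to 5.23 in the controls to 5.06 to 6.48 in WI-CMJ. These 3 genes were highest in WI-CMJ replicate 5, with replicate 3 next and replicates 2 and 4 the lowest, so the WI-CMJ arrays were far from alike. With 1 array left out, COL6A2 was called in all 10 fits, ADAMTS8 and ACKR1 in 4, BGN in 2 and KAZALD1 in 1.

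Most markers of the stroma had positive differences too, as did 9 of 10 proximal tubule markers (median 0.17), beside 47.2% of all identifiers. All 4 smooth muscle and pericyte markers on the array had positive differences, of which 3 had an unadjusted p under 0.05 and none passed limma's adjusted test, and their median difference was 0.69 (CNN1 1.74, DES 0.76, ACTA2 0.61, RGS5 0.47). Their summed linear signal ranged from 1929 to 3662 in Ctl-CMJ and from 3021 to 7067 in WI-CMJ. All 5 fibroblast markers were positive too (1 with an unadjusted p under 0.05), with a median of 0.29 and summed signals of 2561 to 5399 in Ctl-CMJ and 3232 to 8300 in WI-CMJ, and all 7 endothelial markers (3), with a median of 0.26 and summed signals of 5299 to 10161 against 7943 to 9991. In the fat marker list ADIPOQ had 1.25 ± 0.35 (adjusted p = 0.10), and 7 of the 8 markers were positive, with a median of 0.33. The dimmer ADIPOQ identifiers had fitted differences of 3.77 ± 1.07 (adjusted p = 0.11) and 3.41 ± 1.02 (adjusted p = 0.13). Both were well above background on no Ctl-CMJ array and on 3 WI-CMJ arrays, and their groups overlapped. AKR1B1 of the medulla had -1.17 ± 0.37 (adjusted p = 0.16) and SLC6A12 -0.05, and the summed signal of the 2 osmolyte genes on the array ranged from 233 to 1030 in Ctl-CMJ and from 245 to 339 in WI-CMJ. The 7 thick ascending limb markers had a median of 0.00 with 4 positive. The part that the share of stroma or medulla in a sample had in the rise of the matrix genes was not tested.

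The other named rises were CSDC2, an RNA-binding protein, by 1.06 ± 0.25 (adjusted p = 0.050), ARF3, a GTPase of the Golgi, by 0.97 ± 0.21 (adjusted p = 0.034), and PRR15 by 0.92 ± 0.16 (adjusted p = 0.012). For all 3 of them WI-CMJ replicate 1 was the lowest of its group and still above the highest control. PRR15 was called in all 10 fits with 1 array left out, ARF3 in 3 and CSDC2 in 1.

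Only 10 genes with a symbol fell when each gene was represented by its brightest identifier. MAP3K8, a kinase that links inflammatory receptors to ERK signaling, read 6.95, 6.70, 6.80, 6.93 and 7.34 in Ctl-CMJ and 5.87, 6.10, 6.02, 5.85 and 5.38 in WI-CMJ. The log2 difference was -1.10 ± 0.19 (adjusted p = 0.0095). IER3, an early gene that is usually induced by stress and that guards against cell death, read 9.01, 8.89, 8.93, 9.19 and 9.06 against 8.11, 8.23, 8.10, 8.29 and 7.88. It fell by 0.90 on the log2 scale (SE 0.15, adjusted p = 0.0091), opposite in sign to the other called genes of its list, and both falls were called whichever array was left out.

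HHIPL2 fell by 0.75 (SE 0.16, adjusted p = 0.034), CIART, a repressor of the circadian clock, by 0.68 (SE 0.16, adjusted p = 0.047) and ZNF473, a zinc finger protein involved in histone messages, by 0.59 (SE 0.13, adjusted p = 0.035). The other CIART identifier had -0.37 ± 0.16 (adjusted p = 0.35), and the CIART groups overlapped. A trio of messenger RNA splicing factors also fell, PRPF39 by 0.58 (SE 0.11, adjusted p = 0.024), PNN by 0.53 (SE 0.10, adjusted p = 0.024) and ARGLU1 by 0.52 (SE 0.12, adjusted p = 0.045). They were not a list chosen beforehand and were not tested as a group. ARHGEF16 fell by 0.53 (SE 0.11, adjusted p = 0.029), and KRTCAP2, a subunit of the oligosaccharyltransferase, by 0.53 (SE 0.12, adjusted p = 0.045). Of these 8 genes, none was called in more than 6 of the 10 fits with 1 array left out.

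For other genes a call rested on 1 identifier. EIF4A2, a translation factor, was called lower for an identifier with 1 probe (-0.63 ± 0.14, adjusted p = 0.049) and had -0.10 ± 0.09 over the 13 probes of its RefSeq identifier. RPL11, a ribosomal protein, was called for AK400685 (-0.60 ± 0.13, adjusted p = 0.040) and had 0.01 ± 0.08 and -0.31 ± 0.17 for the other identifiers.

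The steepest falls had no gene symbol. The lowest adjusted p of the comparison, 2.3e-08, belonged to TC626266, which read 3.16, 3.15, 3.24, 3.52 and 3.72 in Ctl-CMJ and 0.38, 0.98, 0.40, 0.60 and 0.42 in WI-CMJ. It was well above background on 4 Ctl-CMJ arrays and on no WI-CMJ array, so it was at least 1.91-fold lower (fitted difference -2.80 ± 0.16). TC582618 read 3.85, 3.57, 4.21, 3.46 and 3.59 against 0.71, 0.36, 0.38, 1.75 and 0.26, at least 2.48-fold lower (fitted difference -3.04 ± 0.29, adjusted p = 2.4e-05). Both were dim transcripts that sank to the background.

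TC602959 was measured in both groups. It read 7.92, 7.89, 7.64, 8.23 and 8.06 in Ctl-CMJ and 4.53, 5.26, 5.05, 4.58 and 3.98 in WI-CMJ, a fall of 3.27 on the log2 scale (SE 0.28, adjusted p = 6.8e-06). The array files describe it by a short match to a mouse metalloproteinase precursor, which does not identify it. TC562631 fell by 2.08 (SE 0.15, adjusted p = 1.3e-06), TC538121 by 2.39 (SE 0.30, adjusted p = 0.00055) and CO992076, described only as an endometrial cDNA, by 1.83 (SE 0.17, adjusted p = 1.9e-05).

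A further 2 probes share a run of 28 bases and so are not independent. A_72_P231427 read 9.63, 9.47, 9.44, 9.71 and 9.06 in Ctl-CMJ and 6.55, 4.39, 6.15, 5.30 and 4.87 in WI-CMJ, a fall of 4.01 (SE 0.55, adjusted p = 0.0014). A_72_P001141 read 7.02, 6.64, 6.86, 6.85 and 6.31 against 3.76, 0.46, 2.83, 0.71 and 1.55, a fitted difference of -4.88 ± 0.71 (adjusted p = 0.0029), but it was well above background on only 1 of the 5 WI-CMJ arrays, so the size of its fall was not measured. What either probe reads was not determined. All transcripts of the last 3 paragraphs were chosen after their values were seen, and each of the 8 was called in all 10 fits with 1 array left out. Identifiers described as reverse transcriptase, the enzyme of mobile elements, numbered 212, of which none was called higher and 5 were called lower, beside 0.317% of all identifiers called lower. Their median difference was -0.17 and 161 were negative, while 47.2% of all identifiers were positive with a median of -0.01. Of the 27097 identifiers without a symbol, 58 were called higher and 102 lower, with a median of -0.02. The reverse transcriptase class was not a list chosen beforehand and was not tested as a group.

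**Figure D4:**
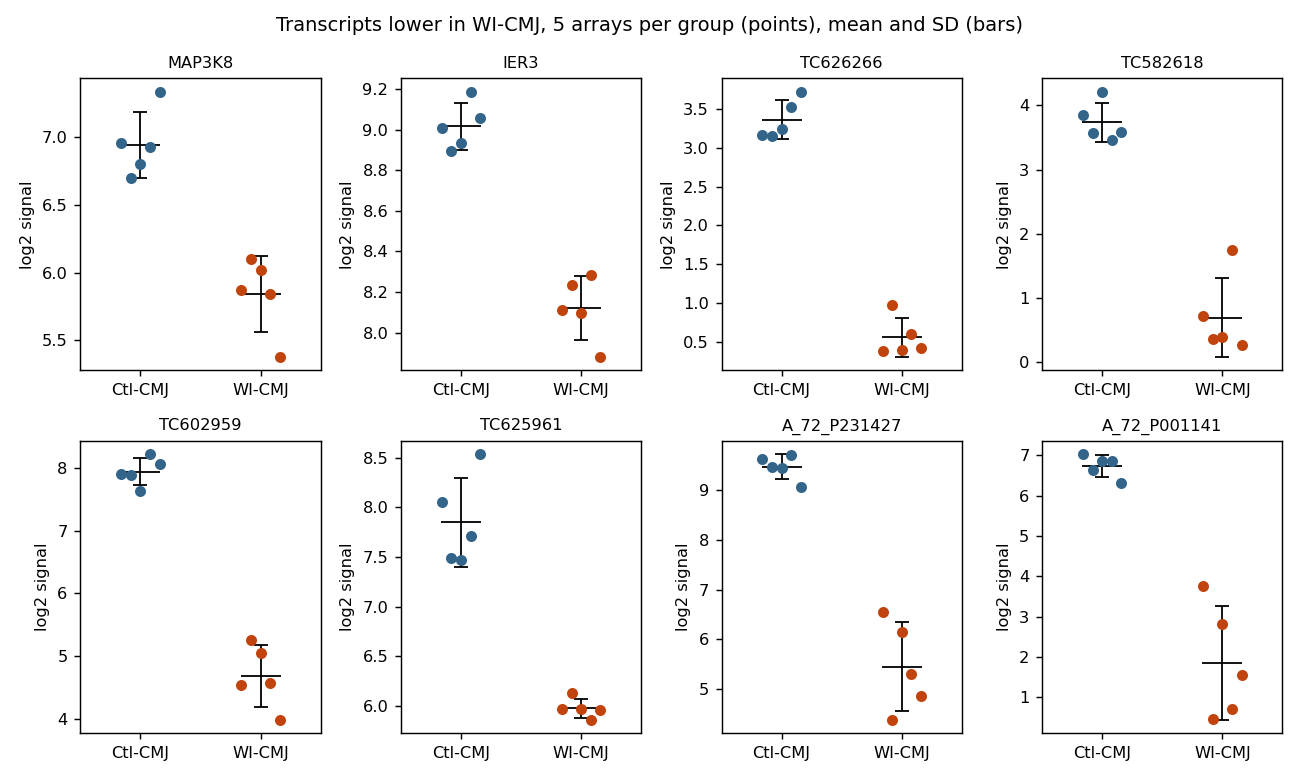
Points are log2 signals of the 5 Ctl-CMJ and the 5 WI-CMJ arrays for MAP3K8, IER3 and 6 identifiers without a symbol, and bars give the mean and SD of each group. In every panel the highest WI-CMJ array lies below the lowest Ctl-CMJ array.

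Unnamed transcripts rose as well. TC564655, with the largest fitted rise, read 1.33, 1.53, 1.00, 1.71 and 0.91 in Ctl-CMJ and 5.51, 4.64, 5.96, 4.37 and 6.12 in WI-CMJ, and was at least 8.08-fold higher (fitted difference 4.03 ± 0.34, adjusted p = 6.8e-06). A transcript described as an H2A histone gene (ENSSSCT00000007306) read 0.97, 0.20, 1.72, 0.15 and 0.79 against 3.15, 3.27, 3.28, 3.65 and 3.17, at least 2.00-fold higher (fitted difference 2.54 ± 0.27, adjusted p = 9.3e-05). Neither was well above background on any control array. JN899104, described as a small nucleolar RNA cluster, read 9.91, 9.77, 10.40, 9.40 and 8.99 against 11.16, 10.94, 11.04, 11.35 and 10.96, a rise of 1.40 ± 0.26 (adjusted p = 0.016). These 3 were chosen after their values were seen.

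In C the same contrast, WI-C against Ctl-C, gave 34 calls of 35939 identifiers (0.0946%), and 22 of them were calls of the CMJ too, 6 higher and 16 lower, which is 64.7% of the calls in C and 8.91% of the calls in CMJ. The direction in C was that of the CMJ for 132 of the 133 identifiers called higher and for 113 of the 114 called lower, beside 65.4% of all identifiers. The differences were smaller in C, with medians of 0.49 and -0.54 for the identifiers called higher and lower in CMJ, though these were chosen for a large change in CMJ. The test of the difference between the tissues, an interaction over all 40 arrays, called no identifier (0%) by limma, with 710 at an unadjusted p under 0.05 and also none with trend and robust estimation (693). A stronger response of the CMJ was thus not shown for any single gene.

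FOS came nearest among the named genes. It rose by 2.59 ± 0.25 in CMJ and by 1.27 ± 0.22 in C, where it was called (adjusted p = 0.022), and the difference of 1.32 had an unadjusted p of 0.00040 and an adjusted p of 1.00. FOSB had 1.79 ± 0.37 in C (adjusted p = 0.11), EGR1 had 1.34 ± 0.24 (adjusted p = 0.028) and IL1B had 2.26 ± 0.32 (adjusted p = 0.0041), about as in CMJ. BTG2 with 0.30 ± 0.27, JUN with 0.25 ± 0.21 for the brighter and 0.94 ± 0.24 (adjusted p = 0.37) for the dimmer identifier, and ADAMTS8 with 0.12 ± 0.34 were not called in C. IER3 had -0.95 ± 0.15 in C (adjusted p = 0.0086) and TC626266 had -2.75 ± 0.16 (adjusted p = 5.6e-08), close to their CMJ values.

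After cold storage the CMJ was compared with the same Ctl-CMJ arrays, so these comparisons share their controls with the one above and are set out only as values. WI+CS6h-CMJ had 1148 calls (3.19%) and WI+CS24h-CMJ had 1313 (3.65%). FOS was above the controls by 2.59 after WI alone, by 2.98 after 6 h and by 3.02 after 24 h of storage, and EGR1 by 2.34, 2.36 and 2.36. BTG2 was above them by 1.30, 1.86 and 1.95, and NR4A2 by 1.47, 2.65 and 2.77. The matrix genes had lower values after storage, 1.45, 0.39 and 0.52 for COL6A2 and 1.30, 0.39 and 0.38 for BGN, and neither was called at 6 h or 24 h. IER3 had -0.90, -0.40 and -0.30, and MAP3K8 had -1.10, -1.11 and -1.15. No test was made between the storage times here.

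**Figure D5:**
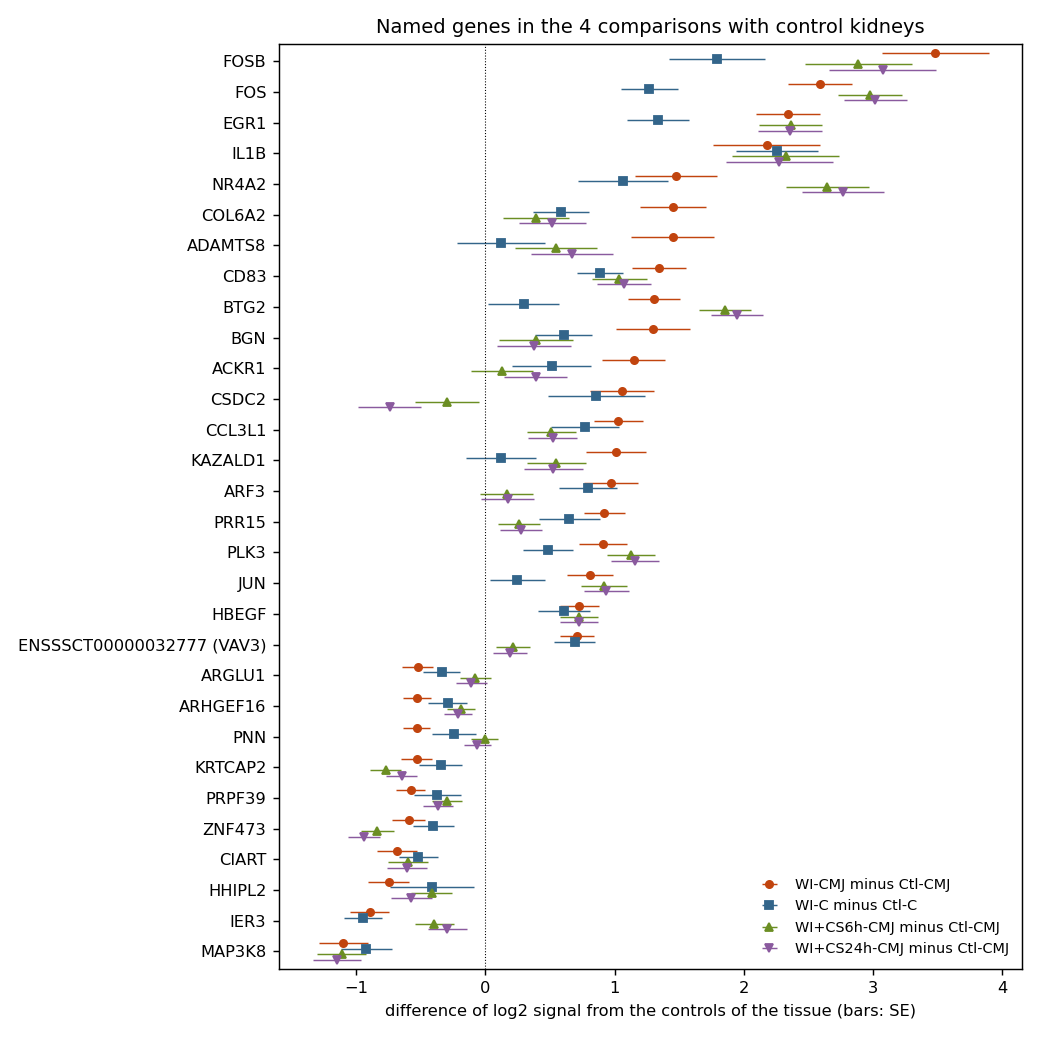
Points are the log2 differences from the controls of the same tissue, with SE bars, for the 30 genes named by rule in WI-CMJ, WI-C, WI+CS6h-CMJ and WI+CS24h-CMJ, ordered by the value in WI-CMJ. FOSB lies at 3.48 in WI-CMJ and 1.79 in WI-C, and MAP3K8 lies between -1.15 and -0.92 in all 4 comparisons, of which the 3 in CMJ share control arrays.

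The calls also moved with 2 technical measures. The probes of the identifiers called higher had a median G and C content of 45%, those called lower 38.3% and all identifiers 40%. Called higher were 0.0982% of identifiers with at most 35% G and C and 2.29% of those with 50 to 55%, and the median difference went from -0.02 to 0.09 between these bins. The median signal of probes with over 50% G and C minus that of probes with at most 40%, each relative to the probe's mean over the 10 arrays, lay between -0.11 and 0.00 in Ctl-CMJ and between -0.07 and 0.23 in WI-CMJ, highest in WI-CMJ replicate 5. With the bins centred, an alternative added after seeing the data, 210 identifiers were called (99 higher and 111 lower), 198 of them among the 247, and the differences were 2.61 for FOS, 3.35 for FOSB and 2.33 for EGR1. Of the 30 named genes 3 lost the call, BGN (1.22, adjusted p = 0.054), CSDC2 (0.93, adjusted p = 0.070) and ARGLU1 (-0.53, adjusted p = 0.0503).

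The arrays were scanned on 2 days. Within day 1 (2 Ctl-CMJ and 3 WI-CMJ arrays) 18 identifiers were called, none of them among the 30 genes named by rule, and within day 2 (3 and 2 arrays) 206, with 13 of the 30. The median difference of the identifiers called higher was 0.56 on day 1 and 0.86 on day 2, and of those called lower -0.64 and -0.92. FOS differed by 2.11 and 3.02, EGR1 by 1.73 and 2.89, ADAMTS8 by 0.70 and 2.45 and MAP3K8 by -1.13 and -1.16. With scan day as a term 220 identifiers were called, and with slide as a random block 340. Only 1 of the 10 slides held arrays of both groups (Ctl-CMJ replicate 4 and WI-CMJ replicate 3), on which FOS differed by 3.27 and EGR1 by 2.79. FOSB differed by 4.29 on this slide, but its control reading was not well above background, so the size of this difference was not measured. The part of base composition and of scan day in the size of these differences was not tested.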

How the data were processed

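RNA of 40 tissue samples was hybridised to single-color porcine 44k arrays. The authors deposited the Feature Extraction 11.5.1.1 output of each array, whose intensity values are background-subtracted and not normalized between arrays, and a log2 table, made per the study's methods by quantile normalization and summarising. The deposited log2 table served only as an alternative. Here log2 processed intensity of the 43803 non-control spots, without outlier spots, was quantile normalized over 40 arrays and averaged by identifier (35955). Symbols (8843 identifiers) came from RefSeq accessions (5367) or the array files (3476). Promoter sequences were not analysed here, and 1 response list is not reported here.

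In R 4.3.3 with limma 3.58.1, the 20 CMJ arrays entered 1 linear model with group as factor (lmFit, eBayes), p-values were adjusted by Benjamini-Hochberg, and the interaction used all 40. The cold-stored arrays at 6 h and 24 h come from shared kidneys (same-number deviations correlated 0.33 to 0.61) and were taken as independent. An identifier counted as well above background where any of its probes was. For bounds, the dim group was set, per array, at the higher of its own signal and the lowest signal among probes well above background. Scripts were tested on simulated data. Precision is limited by having 5 arrays a group.

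Genes were named by rule: FOS, JUN, EGR1, CD83 and VAV3, the 15 called genes with a symbol that rose most and the 15 that fell most (10 fell), and called members of the response lists, each gene by its brightest identifier. FOSB was identified by the description column. Members, lists and this rule were chosen with earlier results of these data known. Alternatives were other scalings and backgrounds, filters, batch terms and leaving out each array.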

Additional observations from a re-analysis of the deposited data

Results flagged for a closer look

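For the genes named by rule and the share of spots above background, 62 groups of 5 arrays were searched for an array set apart from its group (a gap to the nearest array over 0.71 of the group's range), and 2 were found, where chance gives about 1 in 20 groups. CSDC2 had a ratio of 0.721 in WI-CMJ, where replicate 1 read 4.57 and the others 5.34 to 5.64. HHIPL2 had a ratio of 0.711 in Ctl-CMJ, where replicate 4 read 9.34 and the others 9.10 to 9.17.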

How the results depend on the processing

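The count of 247 calls depended on the processing. It was 110 with arrays scaled to their 75th percentile, 33 after normexp background correction with an offset of 50 and 113 in the deposited log2 matrix. It was 7 with slide as a fixed term and 148 with the share of spots above background as a covariate. The count was 136 in a fit of the 10 compared arrays alone and 18 within scan day 1. With 1 array left out it ranged from 77 (without WI-CMJ replicate 5) to 427 (without WI-CMJ replicate 1), and it was 109, 99, 160 and 87 without Ctl-CMJ replicates 1 to 4 and 109 and 143 without WI-CMJ replicates 3 and 4. The other 10 settings gave 206 to 354 calls. The causes were not tested. The interaction gave 0 to 1 calls with 1 array left out (1 without Ctl-CMJ replicate 3) and 0 in the others. The difference in the share of spots well above background ranged from -1.65 to 0.0555 percentage points with 1 array left out, with the sign turned without WI-CMJ replicate 3, and was -0.0799 within scan day 1 and -2.07 within scan day 2.

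None of the 30 named genes changed direction in any setting. Of their 450 values in other settings 331 kept the call, with 7 of 30 genes kept after normexp and none with slide as a fixed term. Within a scan day 13 of 60 values kept it, all on day 2. With 1 array left out, 162 of 300 values kept it, from 9 of 30 genes without WI-CMJ replicate 5 and 10 without Ctl-CMJ replicate 2 or 4 to 28 without WI-CMJ replicate 1. Replicate numbers did not pair Ctl-CMJ with WI-CMJ: deviations of same-numbered arrays correlated between -0.21 and 0.08, and 1 of 5 was highest with its own number. With a replicate block 282 identifiers were called, 213 of them among the 247.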
